A study of Mus musculus with 12 samples.

Results

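The nuclear-encoded respiratory chain genes were followed in mouse liver across 12 RNA-seq libraries. A gene was a member when its table row mapped, by Ensembl identifier, to a protein-coding GENCODE vM1 symbol starting with Nduf, Uqcr, Atp5 or Cox4 to Cox8, or equal to Sdha, Sdhb, Sdhc or Sdhd, and its counts summed above 0. Of 92 identifiers with such symbols, 80 were members, out of 28151 rows with counts in the whole table. Cox7b2 and Cox8c had a row but no counts. The other 10 identifiers (Atp5b, Atp5g2, Atp5o, Cox4nb, Ndufa12, Ndufb2, Ndufb8, Ndufb9 and Uqcrb, with Ndufb8 under 2 identifiers) are not analysed here. The members comprised 38 genes of complex I (7 core subunits, 27 accessory subunits and 4 assembly factors), 4 of complex II, 7 of complex III, 16 of complex IV and 15 of complex V. The symbols set these roles, and some members sit loosely in them. Ndufa4 is now counted with cytochrome c oxidase, Cox7a2l acts in joining complexes III and IV, Atp5s and Atp5sl are not ATP synthase subunits proper, and Atp5l-ps1 carries the name of a pseudogene although the annotation types it as protein-coding.

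All mice were C57BL/6, 5 to 7 weeks old by the study's methods, which name both sexes for DSS treatment. The 4 groups of 3 livers were wild-type mice on water, wild-type mice given 2% dextran sodium sulfate (DSS) for 6 days, which injures the colon lining and causes acute colitis, and mice with the label RelaΔhepStat3Δhep, again on water or on DSS. In these mice an albumin-driven Cre removes Rela and Stat3, transcription factors of inflammatory signalling, from hepatocytes, so that other liver cells keep both genes. By the study's methods, wild type stands for Cre-negative littermates with floxed Rela, floxed Stat3 or both. Each library stands for 1 liver, named by the labels as a biological replicate, and the spread between livers is the error given below.

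The respiratory chain sits in the inner mitochondrial membrane. Complexes I and II take electrons from NADH and succinate, complex III passes them from ubiquinol to cytochrome c, and complex IV hands them to oxygen. Complexes I, III and IV pump protons, and complex V, the ATP synthase, lets them flow back to make ATP. Most subunits come from nuclear genes and a few from mitochondrial DNA. Hepatocytes are rich in mitochondria and use this chain to power gluconeogenesis, urea synthesis and bile formation. The factors NRF1, the ETS protein GABP, YY1 and SP1 are known to bind many promoters of these nuclear genes.

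Promoters were looked up to show what the members share in sequence. A 300-base window, 250 bases before to 50 after the start (RefSeq, GRCm38.p6), was found for 64 of the 80 members. Motifs were searched on both strands with overlaps allowed: GCGCA, any base and GCGC for NRF1, CCGGAAG for ETS factors, AAGATGGC for YY1 and GGGCGG for SP1. The NRF1 letters were in 15 of the 64 windows (23.4%), against 4.78% of all 27025 windows. The ETS letters were in 16 (25.0% against 9.12%), those of YY1 in 7 (10.9% against 2.88%) and those of SP1 in 26 (40.6% against 35.9%). In all, 46 of the 64 held at least 1 of the 4 motifs. The share of all windows with at least 1 of the 4 was not counted, and the SP1 letters alone were in 35.9% of them. The 46 are therefore not set against a background. A letter match is a description and not evidence of binding. The windows below belong to Ndufaf4, the member with the smallest edgeR p-value of any comparison, to Sdha and Uqcrc1, subunits of complexes II and III with several NRF1 matches, and, for contrast, to Cox8b, a muscle isoform with none of the 4 motifs. Capitals mark NRF1 and SP1 matches.
Ndufaf4 (chr4:24897833-24898132, plus strand): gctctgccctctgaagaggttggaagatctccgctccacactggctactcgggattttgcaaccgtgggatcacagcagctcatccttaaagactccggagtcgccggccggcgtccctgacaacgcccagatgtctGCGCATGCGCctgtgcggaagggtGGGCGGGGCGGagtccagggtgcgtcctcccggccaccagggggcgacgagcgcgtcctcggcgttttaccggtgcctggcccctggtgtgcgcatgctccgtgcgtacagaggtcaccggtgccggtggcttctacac
Sdha (chr13:74350191-74350490, minus strand): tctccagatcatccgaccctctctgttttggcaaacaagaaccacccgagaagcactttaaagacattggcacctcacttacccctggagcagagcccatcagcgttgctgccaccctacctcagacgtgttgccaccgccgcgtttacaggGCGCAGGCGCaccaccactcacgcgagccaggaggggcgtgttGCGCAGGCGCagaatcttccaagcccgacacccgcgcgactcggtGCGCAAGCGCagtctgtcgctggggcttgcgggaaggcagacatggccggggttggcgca
Uqcrc1 (chr9:108936398-108936697, plus strand): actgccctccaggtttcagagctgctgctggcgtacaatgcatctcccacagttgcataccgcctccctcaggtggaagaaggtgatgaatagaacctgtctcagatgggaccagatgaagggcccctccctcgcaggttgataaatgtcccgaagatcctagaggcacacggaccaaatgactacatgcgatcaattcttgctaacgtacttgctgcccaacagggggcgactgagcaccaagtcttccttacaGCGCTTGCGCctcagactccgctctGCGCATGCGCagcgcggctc
Cox8b (chr7:140900397-140900696, minus strand): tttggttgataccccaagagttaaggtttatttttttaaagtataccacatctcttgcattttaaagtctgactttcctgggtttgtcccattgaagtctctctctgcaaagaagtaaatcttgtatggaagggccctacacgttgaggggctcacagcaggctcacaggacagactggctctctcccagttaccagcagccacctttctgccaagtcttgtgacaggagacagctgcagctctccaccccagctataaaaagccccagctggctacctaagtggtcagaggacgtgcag

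Library totals ran from 65879529 to 82850098 estimated counts. Levels are given as CPM, counts scaled to library size and by the trimmed mean of M-values (TMM). The scaling factor was 0.758 in DSS-treated wild-type liver 2 and 0.953 to 1.13 in the other 11. That liver also had the highest summed neutrophil markers, 84.4 CPM against 0.345 to 22.1 elsewhere. Xist, the RNA of the inactive X, was at 903 to 1283 CPM in all 3 DSS-treated RelaΔhepStat3Δhep livers and at 1143 CPM in untreated wild-type liver 3, and at most 29.0 CPM in the other 8. Treatment and Xist level therefore cannot be told apart in the livers labelled RelaΔhepStat3Δhep. Rela transcripts were at 39.5 to 62.3 CPM in the livers with that label and at 39.8 to 55.5 CPM in wild-type livers. Stat3 transcripts were at 45.9, 46.7 and 49.7 CPM untreated and at 43.0, 58.0 and 74.8 CPM after DSS with the label, against 45.7, 138 and 87.6 CPM and 63.2, 330 and 307 CPM in wild type. The 4 highest Stat3 values were thus in wild-type livers, while the ranges overlapped for both genes. The counts cover the whole gene and all liver cells. Hepatocyte markers (6 genes, Alb among them) were high in every library. In whole liver, fewer cells of a type and less RNA per cell cannot be told apart.

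Members were expressed over a wide range. Per kilobase of annotated exon, the median member was at 47.1 CPM. Ndufa4 was highest at 382 CPM per kilobase, followed by the complex IV subunit Cox4i1 at 337 and by Atp5a1, the catalytic-ring alpha subunit of the ATP synthase, at 301. The leading genes of complexes II and III were Sdhd, a membrane anchor, at 145 and Uqcr11, a small subunit, at 136 CPM per kilobase. By role, the median was 42.4 CPM per kilobase for the complex I core, 42.2 for its accessory subunits, 93.1 for complex II, 106 for complex III, 115 for complex IV and 50.5 for complex V. The 4 complex I assembly factors were lower, from 4.48 (Ndufaf2) to 12.9 (Ndufaf1). Such factors help build the complex and are not part of it.

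Isoforms known from other tissues were scarce beside their widely expressed partners. Cox4i2, the lung and hypoxia form of Cox4, was at 0.0547 CPM per kilobase against 337 for Cox4i1. Cox6b2, the testis form, was at 0.593 against 286 for Cox6b1. Cox7a1, a heart and muscle form, was at 4.60 against 133 for Cox7a2. The muscle forms Cox6a2 and Cox8b averaged 0.748 and 0.465 CPM per kilobase, against 195 for Cox6a1 and 172 for Cox8a. Ndufa4l2, the hypoxia-induced relative of Ndufa4, averaged 1.83 CPM per kilobase. These 3 averages leaned on single livers. Without DSS-treated RelaΔhepStat3Δhep liver 3 they were 0.303 CPM per kilobase for Cox6a2 and 0.0243 for Cox8b, and without DSS-treated wild-type liver 2 the value was 0.821 for Ndufa4l2, as described below. The ratios rest on exon lengths taken as the union of all annotated exons, which lowers the value of genes with long rare transcripts. Of the 80 members, 78 passed the filter on low counts and were tested. Cox4i2 and Cox8b did not pass.

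The first comparison asked how respiratory chain transcripts of wild-type liver differed after DSS. No member passed the adjusted threshold of 0.05 (edgeR quasi-likelihood test, Benjamini-Hochberg over 17652 genes, of which 0.685% were called). At an unadjusted p under 0.05 there were 14 members, 12 lower and 2 higher. Of all genes, 6.19% were lower and 8.36% higher at that level. The 14 fell to 3 without untreated liver 1 or without DSS-treated liver 2 (11.4% and 12.5% of all genes), to 8 without DSS-treated liver 3 (14.5%), and rose to 23 without DSS-treated liver 1 (14.4%), so that count rested on single livers. The DESeq2 Wald test called 1 member, Ndufaf4, and 5.95% of all genes. Although no edgeR call was made, the members leaned one way. The log2 fold change was below 0 in 70 of 78 members, against 47.8% of all genes, and its median was -0.26, against 0.02 over all genes. The CPM of the 2 groups did not overlap, with DSS lower, for 33 members, against 9.21% of all genes. These comprised 16 genes of complex I, 2 of complex II, 4 of complex III, 5 of complex IV and 6 of complex V. Not a single tested member was higher in all 3 DSS-treated livers than in every untreated liver (9.49% of all genes were).

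**Figure D1:**
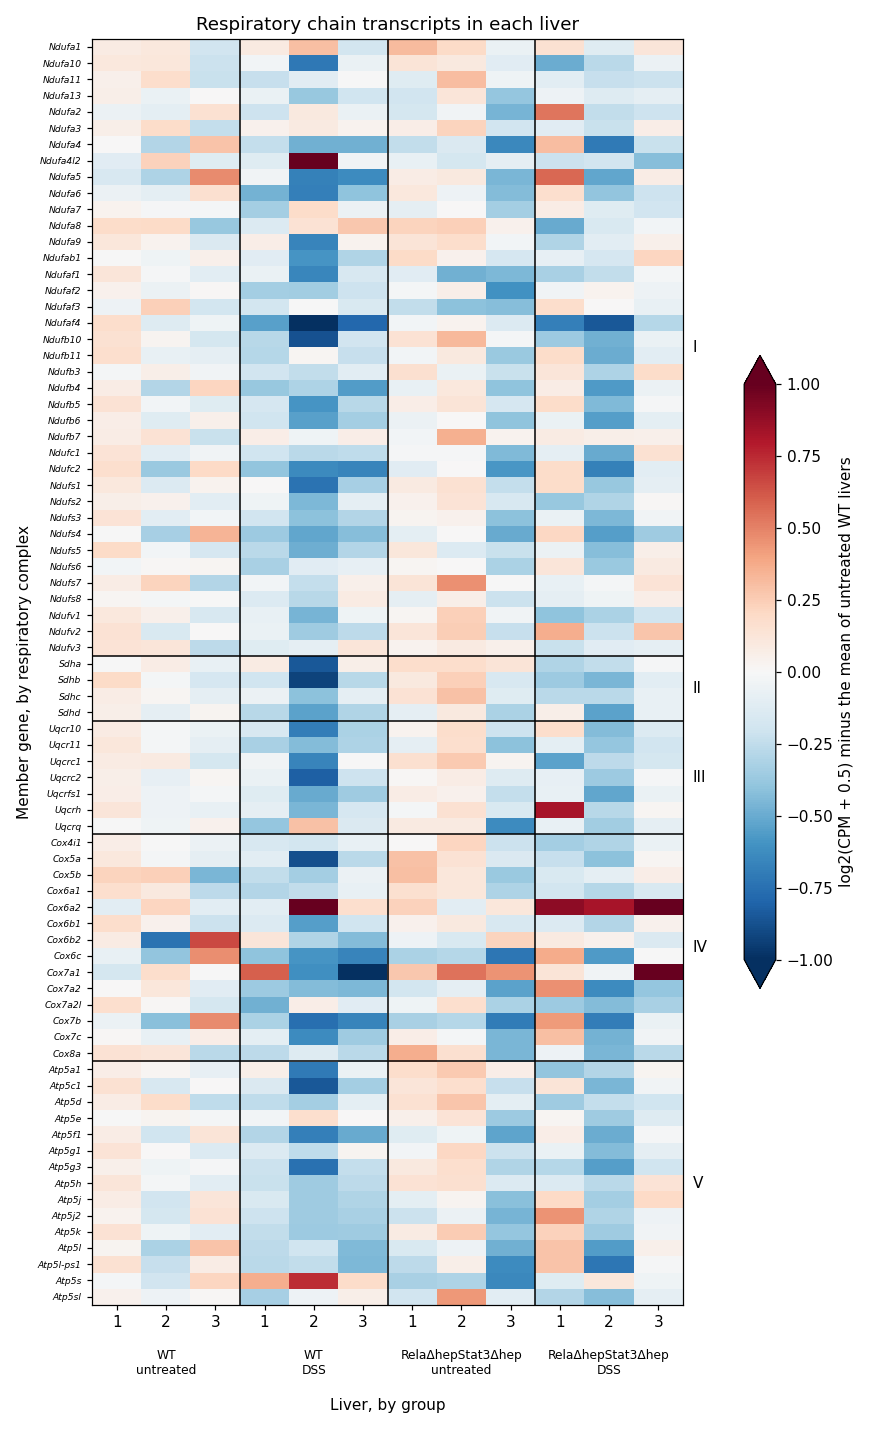
Colours show log2(CPM + 0.5) of each of the 78 tested members minus the mean of the 3 untreated wild-type livers, with 1 column per liver and rows ordered by complex. The columns of the DSS-treated wild-type livers are mostly blue (65 to 68 of 78 members below 0), as are untreated RelaΔhepStat3Δhep liver 3 (69 below 0) and DSS-treated RelaΔhepStat3Δhep liver 2 (72 below 0).

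The lean was seen in all 5 complexes. Median log2 fold changes were -0.22 for complex I, -0.27 for complex II, -0.32 for complex III, -0.29 for complex IV and -0.28 for complex V. Every tested member of complexes II and III was below 0 (4 of 4 and 7 of 7), as were 33 of 38 in complex I, 13 of 14 in complex IV and 13 of 15 in complex V. Summed over the members, wild-type livers held 8717, 8075 and 8203 CPM untreated and 7518, 5910 and 7219 CPM after DSS. All 3 DSS-treated livers were below all 3 untreated ones, and liver 2 was lowest. Its median member lay 0.39 below the untreated mean on the log2 scale, against 0.18 and 0.21 for livers 1 and 3. Without liver 2 the median log2 fold change was -0.20 with 71 of 78 members below 0, so the direction did not rest on that liver. The 6 hepatocyte markers summed to 133757, 115324 and 115091 CPM in untreated wild-type livers and to 134681, 80275 and 87208 CPM after DSS. They were thus low in treated livers 2 and 3 and near the highest untreated value in treated liver 1. Alb gave 82.1% of the counts of this list over all libraries. The median log2 fold change of the 6 markers was -0.20, with 5 of 6 below 0, close to that of the members. The part of neutrophil and hepatocyte marker content in the lower values was not tested.

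**Figure D2:**
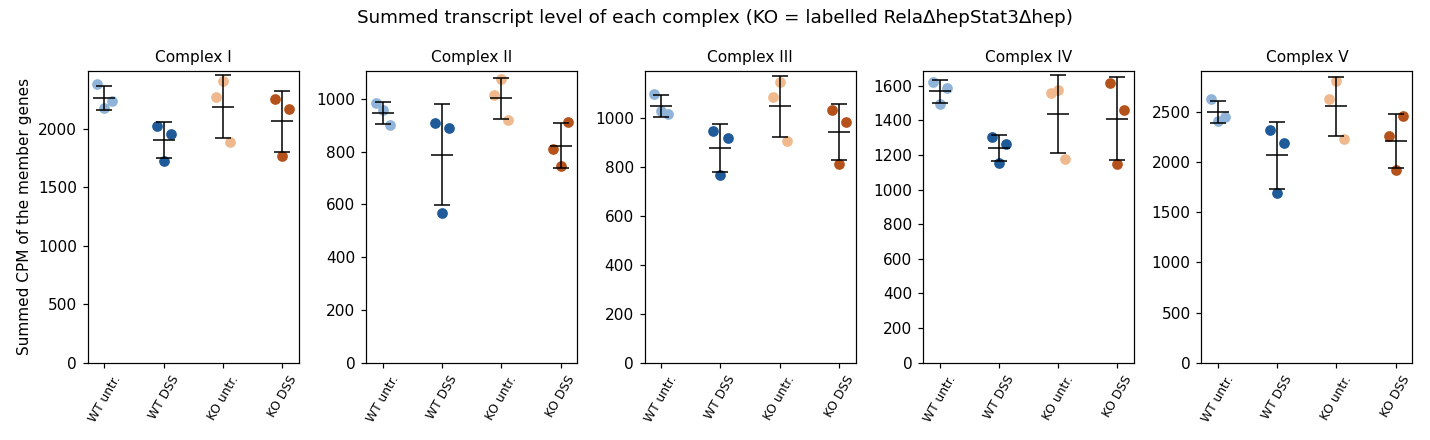
Each panel gives the summed CPM of the members of 1 complex, with points for single livers, horizontal marks for the group mean and bars for the SD (n = 3). In wild-type mice the complex I sum went from 2268 ± 104 to 1906 ± 157 CPM and the complex IV sum from 1567 ± 67.8 to 1240 ± 76.5 CPM with DSS, while in the livers labelled RelaΔhepStat3Δhep the treated and untreated sums of both complexes overlapped. The complex II mean was lower after DSS in both genotypes, with sums of 902 to 985 CPM untreated and 568 to 910 CPM after DSS in wild type, which overlap, and of 921 to 1076 and 744 to 914 CPM with the label, which do not.

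Ndufaf4, an assembly factor of complex I (chromosome 4, 24825230 to 24832148 in NCBIM37), came nearest to the threshold. It was at 45.0, 36.2 and 38.4 CPM in untreated and at 27.0, 18.8 and 22.9 CPM in DSS-treated wild-type livers. The groups did not overlap. The log2 fold change was -0.80 with a standard error of 0.17 (edgeR adjusted p = 0.0535). DESeq2 gave an adjusted p of 0.00152, and over all alternatives the adjusted p ran from there to 0.146. Ndufaf4 also had the lowest log2 fold change of complex I in the livers labelled RelaΔhepStat3Δhep, as given below.

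Among accessory subunits of complex I, Ndufa6 and Ndufc2 were the next lowest. Ndufa6 was at 69.4, 67.3 and 80.7 CPM untreated and at 51.8, 44.9 and 54.6 CPM after DSS (log2 fold change -0.52 ± 0.17 SE, edgeR adjusted p = 0.179). Ndufc2 had a log2 fold change of -0.59 (standard error 0.23, edgeR adjusted p = 0.248). Ndufb4, Ndufb6, Ndufb10 and Ndufs5 also had unadjusted p-values under 0.05, with log2 fold changes of -0.43, -0.36, -0.43 and -0.37. None of the 7 core subunits, which carry the flavin and iron-sulfur centres, had an unadjusted p under 0.05, and all 7 were below 0. These 6 accessory subunits were chosen for their small p-values, after their values were seen.

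Complex II, succinate dehydrogenase, serves both the respiratory chain and the tricarboxylic acid cycle. Sdhb, its iron-sulfur subunit, was at 207, 179 and 162 CPM untreated and at 158, 95.3 and 150 CPM after DSS (log2 fold change -0.44 ± 0.20 SE, edgeR adjusted p = 0.325). The groups did not overlap, and DSS-treated liver 2 was far below the other two. Sdha, the flavoprotein, was at 451, 477 and 430 CPM untreated and at 479, 250 and 472 CPM after DSS. Only liver 2 was low, and the other 2 treated livers were at or above the untreated level. The membrane anchors Sdhc and Sdhd had log2 fold changes of -0.18 and -0.37 (edgeR adjusted p = 0.622 and 0.345).

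In complex III the lowest was Uqcr10, a small subunit, at -0.38 on the log2 scale (edgeR adjusted p = 0.347), and the highest was Uqcrq at -0.05. Uqcr11 was at 105, 96.1 and 91.4 CPM untreated and at 77.6, 71.9 and 78.4 CPM after DSS (log2 fold change -0.36 ± 0.15 SE, edgeR adjusted p = 0.283). Its 2 groups did not overlap.

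In complex IV, Cox6c and Cox7b, small structural subunits, had log2 fold changes of -0.59 (standard error 0.25, edgeR adjusted p = 0.299) and -0.61 (0.28, 0.331). Cox6c was at 155, 124 and 226 CPM untreated and at 123, 108 and 103 CPM after DSS, with the highest value in untreated liver 3. Cox4i1 differed less, from 243 ± 10.6 to 221 ± 8.99 CPM (SD, n = 3; log2 fold change -0.14, edgeR adjusted p = 0.725). Cox6b2, with at most 0.815 CPM in any library, had a log2 fold change of -0.76 whose standard error of 0.96 was larger than itself.

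In complex V, Atp5f1, the peripheral-stalk b subunit, was at 294, 244 and 306 CPM untreated and at 228, 175 and 197 CPM after DSS (log2 fold change -0.49 ± 0.19 SE, edgeR adjusted p = 0.249). Atp5l-ps1 was lowest at -0.50 with a standard error of 0.41 and shares sequence with Atp5l, so that reads may be split between them. Atp5a1, the most abundant member in CPM, was at 977 ± 52.9 and 849 ± 220 CPM (SD, n = 3; edgeR adjusted p = 0.719). Atp5s went the other way, from 3.63, 3.16 and 4.34 CPM to 4.89, 6.46 and 4.24 CPM (log2 fold change 0.49 ± 0.21 SE, edgeR adjusted p = 0.314). Its treated and untreated values overlapped.

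Ndufa4l2 and Cox6a2, the members with the highest log2 fold changes after DSS in wild-type liver, were each high in liver 2 alone. Ndufa4l2 (chromosome 10, 126951995 to 126954208 in NCBIM37) was at 0.783, 12.4 and 0.858 CPM in the 3 DSS-treated wild-type livers and at 0.537 to 1.13 CPM in the other 9. The fitted log2 fold change was 2.37 (standard error 0.88, edgeR adjusted p = 0.241) and -0.14 without liver 2. Cox6a2 was at 0, 0.796 and 0.104 CPM after DSS and at no more than 0.123 CPM untreated.

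**Figure D3:**
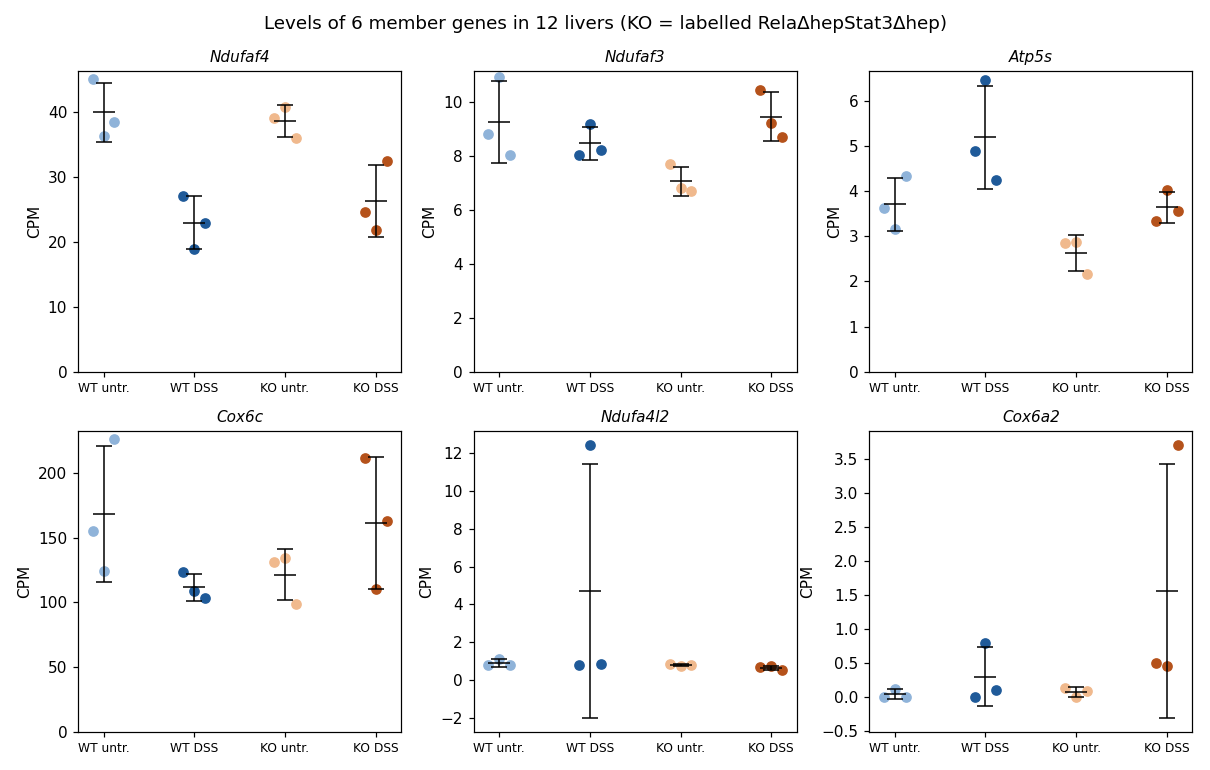
CPM of 6 members in every liver, with points for livers, marks for group means and bars for the SD (n = 3). Ndufaf4 was lower after DSS in both genotypes without overlap, Ndufa4l2 stood out in a single DSS-treated wild-type liver at 12.4 CPM, and Cox6a2 in a single DSS-treated RelaΔhepStat3Δhep liver at 3.72 CPM.

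The second comparison asked the same of the livers labelled RelaΔhepStat3Δhep. Here edgeR called 7.02% of all genes but no member. At an unadjusted p under 0.05 there were 10 members, 3 higher and 7 lower, against 14% and 10.1% of all genes. This count was 1 with Xist as a covariate (11.1% of all genes), 2 without untreated liver 2 (18.2%) or treated liver 1 (17.4%), 6 without untreated liver 1 (21.7%) and 15 without untreated liver 3 (19.3%). The covariate was Xist above 100 CPM, which differed within a group only among the untreated wild-type livers. Its adjustment therefore rested on untreated wild-type liver 3 alone and cannot separate treatment from Xist level here. DESeq2 called 3 members, Atp5d, Ndufaf4 and Ndufv1, all lower, and 14.4% of all genes. The median log2 fold change was -0.08, against -0.01 over all genes, and 51 of 78 members were below 0 (50.6% of all genes). Non-overlapping groups were found for 11 members with DSS lower (14% of all genes) and for 3 with DSS higher (17.8%), so both counts were at or under the share over all genes. The 3 were Ndufaf3, Cox6a2 and Atp5s. Cox6a2 passed the low-count filter mainly through these treated livers (35, 38 and 263 counts), so its non-overlap was partly set by that filter.

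The spread between livers of 1 group was larger than the difference between the group means. Summed CPM was 8569, 9024 and 7131 in untreated and 7979, 6402 and 7992 in DSS-treated livers with this label. Untreated liver 3 and treated liver 2 were the low ones, and the means were 8241 ± 988 and 7458 ± 915 CPM (SD, n = 3). Without treated liver 2 the median log2 fold change was 0.04 and without untreated liver 3 it was -0.20, so its sign depended on single livers. With Xist as a covariate that median was 0.01, but this adjustment rested on untreated wild-type liver 3 alone. Leaving out untreated liver 3 raised the members with lower, non-overlapping values from 11 to 34, and leaving out treated liver 3 raised them to 21, where 20.2% and 18.9% of all genes qualified.

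Ndufaf4 was at 38.9, 40.7 and 36.0 CPM untreated and at 24.5, 21.8 and 32.4 CPM after DSS. The groups did not overlap. The log2 fold change was -0.55 (standard error 0.17, edgeR adjusted p = 0.0659, DESeq2 adjusted p = 0.0207, and up to 0.613, with Xist as a covariate, over the alternatives). Ndufaf4 and Ndufb10 were the 2 members with lower, non-overlapping values in both genotypes, which is 6.06% of the 33 and 18.2% of the 11. They make up 2.56% of the 78 tested members, against 1.82% of all genes that were lower without overlap in both, so the count was near the background. The 2 comparisons used different livers.

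By complex, the lowest median with this label was that of complex II. It had a median log2 fold change of -0.33, and all 4 of its genes were below 0. Sdha was at 510, 510 and 495 CPM untreated and at 367, 382 and 449 CPM after DSS, without overlap (log2 fold change -0.34 ± 0.22 SE, edgeR adjusted p = 0.366). Sdhb and Sdhc had log2 fold changes of -0.37 and -0.32, and Sdhd of -0.07. Uqcrc1, a core protein of complex III, was at 234, 251 and 214 CPM untreated and at 145, 175 and 185 CPM after DSS (log2 fold change -0.47 ± 0.18 SE, edgeR adjusted p = 0.135). Atp5d, the delta subunit of the ATP synthase, was at 180, 196 and 151 CPM and then at 126, 137 and 140 CPM (-0.39, 0.15, 0.137). Ndufv1, the subunit that binds NADH, had a log2 fold change of -0.38 (standard error 0.15, edgeR adjusted p = 0.132). In complex IV the lowest was Cox7a2l at -0.33. None of these members passed by edgeR.

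Some members had higher values after DSS with this label. Ndufaf3, another complex I assembly factor, was at 7.70, 6.80 and 6.71 CPM untreated and at 10.5, 9.23 and 8.72 CPM after DSS (log2 fold change 0.42 ± 0.15 SE, edgeR adjusted p = 0.112). The groups did not overlap. Atp5s was at 2.84, 2.88 and 2.17 CPM and then at 3.35, 4.02 and 3.56 CPM (log2 fold change 0.47 ± 0.21 SE, edgeR adjusted p = 0.200). Uqcrh, the hinge protein of complex III, reached 179 CPM in treated liver 1, while the other 5 livers lay between 83.1 and 112 CPM.

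The muscle isoforms were highest in 1 library. Cox6a2 was at 0.499, 0.455 and 3.72 CPM after DSS and at 0.133, 0 and 0.081 CPM untreated. Its fitted log2 fold change was 4.41 ± 1.65 SE (edgeR adjusted p = 0.134), and 2.71 without treated liver 3. Its counts were 35, 38 and 263 in the treated livers and 10, 0 and 6 untreated. The low-count filter was thus passed mainly through the group where Cox6a2 was high, so the fold change and p-value are descriptive only. Cox8b had 136 counts, or 1.92 CPM, in treated liver 3, 7 counts in untreated liver 2 of this label and 0 in the other 10 libraries. In treated liver 3 the 6 muscle markers with counts (Ckm, Acta1, Myh4, Myh6, Tnnt3 and Mb) summed to 228 CPM. They summed to 1.11 CPM in DSS-treated wild-type liver 3, to 0.185 CPM in treated liver 1 of this label and to 0 in the other 9. Their part in the Cox6a2 level was not tested. Cox7a1, also a muscle form, was at 3.43 CPM in that library and at 0.355 to 2.36 CPM in the others.

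Cell type markers also differed with treatment. With DSS, 6 of 7 Kupffer cell and macrophage markers rose in the livers labelled RelaΔhepStat3Δhep by edgeR, against 4.57% of all genes. The list's sum was at 579 to 936 CPM against 286 to 317 CPM untreated. Of 6 hepatocyte markers, Cyp2e1 and Hnf4a fell, where edgeR called 434 of 17652 genes lower. The list's median log2 fold change was -0.29, with 4 of 6 below 0. Its sum, mostly Alb, was at 129398 to 167017 CPM after DSS against 128859 to 143873 CPM untreated. In wild-type liver edgeR called no marker of any list, and the Kupffer sums overlapped, at 384 to 849 CPM after DSS against 238 to 498 CPM. Even so, 6 of the 7 Kupffer cell and macrophage markers were above 0 there, with a median log2 fold change of 0.62. Of the 7, 5 had an unadjusted edgeR p under 0.05, all higher, against 8.36% of all genes. The neutrophil markers Retnlg, S100a8 and S100a9 were called higher by DESeq2 in both genotypes and by edgeR in neither. Their list summed to 6.20 to 22.1 CPM against 0.345 to 0.572 CPM with the label, and in wild type only liver 2 was far above the untreated range of 1.76 to 3.24 CPM. Lymphocyte marker sums were lower after DSS in wild type (1.88 to 2.54 against 3.81 to 6.04 CPM) and higher with the label (3.68 to 8.17 against 2.13 to 2.58 CPM), without overlap in both. In wild type the stellate cell sum was lower (150 to 269 against 272 to 348 CPM) and the cholangiocyte sum higher (12.2 to 21.0 against 6.02 to 9.01 CPM), again without overlap. With the label, the erythroid sum was lower without overlap (9.80 to 33.9 against 34.6 to 117 CPM, with Alas2 called lower by edgeR), and the stellate marker Des rose while its list's sums overlapped. Endothelial and pancreas sums overlapped between treatments in both genotypes. Their part in the members' levels was not tested.

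**Figure D4:**
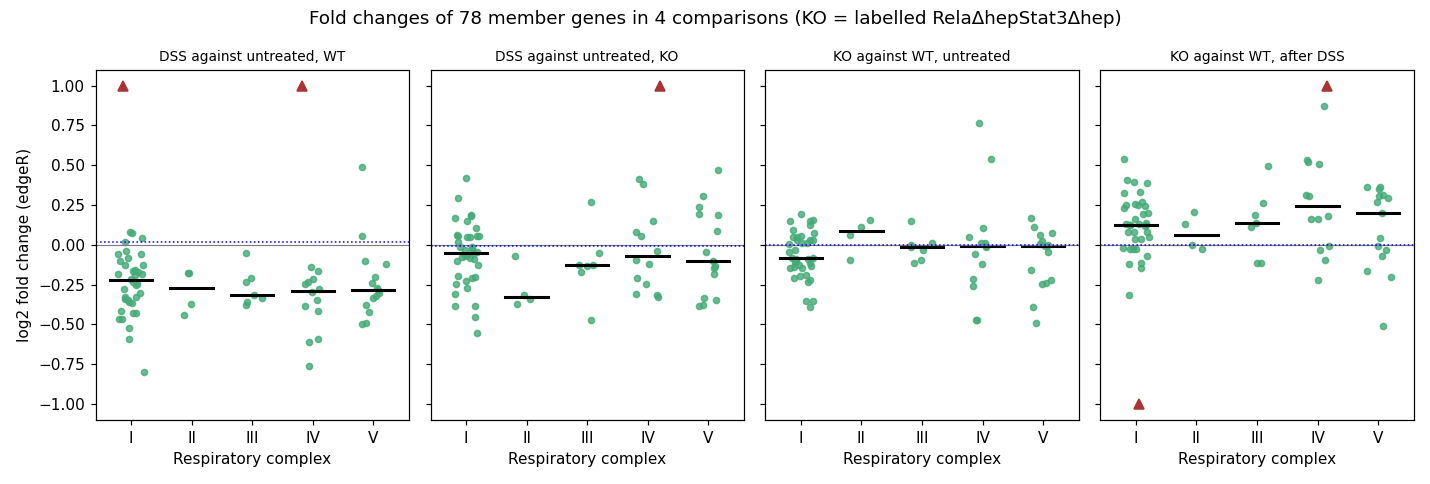
edgeR log2 fold changes of the 78 tested members by complex in 4 comparisons, with points for genes, black bars for the median of each complex, a dotted line for the median of all genes and triangles at the edge for values beyond 1 in size. Only the wild-type DSS comparison has all 5 complex medians below -0.20.

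The third comparison set the livers labelled RelaΔhepStat3Δhep against wild type without treatment. No member was called (edgeR, 0.0623% of all genes), 2 had an unadjusted p under 0.05, both lower (6.23% of all genes), and DESeq2 called none (2.31%). The median log2 fold change was -0.02 with 45 of 78 below 0 (49.8% of all genes). The groups did not overlap for 3 members with lower values (10.7% of all genes) and 2 with higher ones (9.56%). The lower ones were Ndufaf1, Ndufaf3 and Atp5s, and the higher ones Sdha and Cox7a1. Ndufaf3 had a log2 fold change of -0.39 (standard error 0.15, edgeR adjusted p = 0.353). All 4 complex I assembly factors were below 0, with a median of -0.27. Sdha was at 505 ± 8.63 CPM against 452 ± 23.7 CPM (SD, n = 3; edgeR adjusted p = 0.825).

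The fourth comparison set the 2 genotypes against each other after DSS. Xist was at 903 to 1283 CPM in the treated livers with the label and at most 11.9 CPM in the treated wild-type livers. Genotype and Xist level therefore cannot be told apart in this comparison. Again no member was called (edgeR, 0.334% of all genes), 4 had an unadjusted p under 0.05 (14.3%) and DESeq2 called none (3.4%). The 4 became 24 without treated RelaΔhepStat3Δhep liver 2 (14.4% of all genes) and 9 without DSS-treated wild-type liver 1 (16%). They became 1 without DSS-treated wild-type liver 2 (13%) or treated RelaΔhepStat3Δhep liver 1 (9.22%). The median log2 fold change was 0.13, and 54 of 78 members were above 0, against 49.7% of all genes. The same wild-type DSS livers enter the first comparison. Medians were 0.13 for complex I, 0.06 for complex II, 0.14 for complex III, 0.25 for complex IV and 0.20 for complex V. Only 2 members were higher without overlap (8.8% of all genes), Ndufa6 and Ndufaf2, and 2 lower (7.98%), Ndufa4l2 and Atp5s. Ndufa6 was at 81.2, 54.9 and 62.4 CPM against 51.8, 44.9 and 54.6 CPM in wild type (log2 fold change 0.39, edgeR adjusted p = 0.328). Atp5s was lower with the label in both treatments, with log2 fold changes of -0.51 after DSS and -0.49 untreated (edgeR adjusted p = 0.306 and 0.391). Ndufa4l2 was at -2.84 (standard error 0.90, edgeR adjusted p = 0.206) and at -0.33 without DSS-treated wild-type liver 2. It passed the threshold in a single alternative, without DSS-treated wild-type liver 1 (log2 fold change -3.34, edgeR adjusted p = 0.0475).

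The last comparison tested whether the DSS response differed between genotypes. Xist was at 903 to 1283 CPM in the treated livers with the label and at most 29.0 CPM in their untreated ones. A difference in response therefore cannot be told apart from Xist level. No member was called (edgeR interaction contrast, 0.408% of all genes), and none by DESeq2 (4.5%). With an unadjusted p under 0.05 there were 5 members, all with a higher response in the livers labelled RelaΔhepStat3Δhep (8.83% of all genes). In either direction the 5 became 16 without treated RelaΔhepStat3Δhep liver 2 (17.3% of all genes) and 1 without treated liver 1 of that label (12.3%). They became 9 without DSS-treated wild-type liver 1 (17%), 8 without untreated liver 2 of the label (13.3%), 3 without untreated wild-type liver 1 (13.1%), and 2 without untreated wild-type liver 3 (14%) or untreated liver 3 of the label (13%). The 5 were Cox6c, Cox7b, Ndufaf3, Atp5j2 and Atp5f1. The median difference was 0.23, against -0.02 over all genes, and 52 of 78 members were above 0 (48.7% of all genes). Cox6c had the largest of the 5, at 1.00 (standard error 0.35, edgeR adjusted p = 0.201). Its levels with this label were 131, 134 and 98.7 CPM untreated and 212, 110 and 163 CPM after DSS, which overlap. Ndufaf4 had a difference of 0.24 with a standard error of 0.24, so its response was not shown to differ between genotypes.

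The members with a positive difference tended to have a low GC content in their transcripts. Across 75 members with a mean of at least 1 CPM, the difference correlated with the GC percentage of the longest coding transcript at r = -0.39 (Spearman rho = -0.43), and at -0.40 without Ndufa4l2. This is a description across genes that share the same 12 libraries. The 37 members with GC below the members' median of 50.5% had a median difference of 0.29, and the other 38 one of 0.02. The high-GC members had the higher median in all 3 untreated livers with the label and in all 3 DSS-treated wild-type livers. They had the lower one in untreated wild-type liver 3 and in DSS-treated RelaΔhepStat3Δhep livers 1 and 3. In untreated wild-type liver 3 the low-GC members lay 0.01 above and the high-GC members 0.11 below the untreated wild-type mean, and in DSS-treated RelaΔhepStat3Δhep liver 1 the medians were 0.07 and -0.11. In DSS-treated RelaΔhepStat3Δhep liver 2 both were lower, the low-GC members more so (-0.44 and -0.29). GC content was not a term of the fit, and its part in the difference was not tested.

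**Figure D5:**
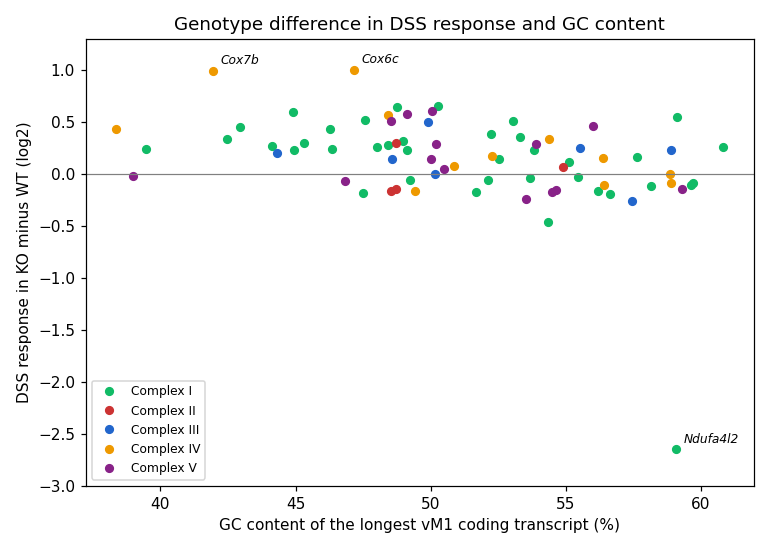
Difference in DSS response between genotypes (log2, edgeR) against the GC percentage of the longest coding transcript for 75 members, coloured by complex. Cox6c and Cox7b lie highest near 1.00 and have GC contents of 47.2% and 42.0%. Ndufa4l2 lies lowest at -2.65, a value that was -0.15 without DSS-treated wild-type liver 2.

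Transcripts from mitochondrial DNA, which are no members, were highest in untreated wild-type liver 3 and in treated liver 1 of the RelaΔhepStat3Δhep label. Of the 13 protein-coding mitochondrial genes, 5 had a row (mt-Nd3, mt-Nd5, mt-Nd6, mt-Cytb and mt-Co2), and the others are not analysed here. Their sum was at 19244, 15394 and 27648 CPM in untreated and at 18071, 13189 and 14672 CPM in DSS-treated wild-type livers. With the RelaΔhepStat3Δhep label it was at 17230, 15817 and 13057 CPM untreated and at 25951, 14464 and 21917 CPM after DSS. The median member was slightly below the untreated wild-type mean in the 2 highest livers (-0.05 and -0.06 on the log2 scale). None of the 5 was called in any comparison by edgeR or DESeq2. With an unadjusted p under 0.05, mt-Nd3 was lower and mt-Nd6 higher after DSS in wild-type liver, and 3 had a positive interaction. Of all genes, 6.19% were lower and 8.36% higher at that level in wild-type liver, and 8.83% had a positive interaction.

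Other genes of the pathway were counted from lists. Of the cytochromes c, Cycs, the mobile carrier, and Cyc1, the complex III subunit, had log2 fold changes of -0.49 and -0.44 after DSS in wild-type liver (edgeR adjusted p = 0.346 and 0.270). No gene of 13 tricarboxylic acid cycle enzymes was called by either tool in either DSS comparison. In wild-type liver 4 had an unadjusted p under 0.05, all lower, against 6.19% of all genes. These were Idh3a, Idh3b, Sucla2 and Suclg1, with log2 fold changes of -0.59, -0.47, -0.46 and -0.43. The list's median was -0.33, close to that of the members. Of 15 assembly factors for complexes II to V, edgeR called none. In wild-type liver 4 were at an unadjusted p under 0.05, all lower, against 6.19% of all genes, and DESeq2 called Tmem70 lower. DESeq2 also called Sdhaf1 lower after DSS in the livers labelled RelaΔhepStat3Δhep and Tmem70 in the interaction, with a higher response there. Each of these is 1 of 15, or 6.67%, against the 5.95%, 14.4% and 4.5% of all genes given above. Of 11 regulators of mitochondrial biogenesis edgeR called none. In the livers labelled RelaΔhepStat3Δhep, DESeq2 called Ppargc1a, a coactivator of respiratory genes, and Gabpb1, a subunit of GABP, both higher after DSS. That is 18.2% of the list, against 14.4% of all genes. By edgeR 4 of the 11 had an unadjusted p under 0.05, where 14% of all genes were higher and 10.1% lower. Ppargc1a and Gabpb1 had higher values. Tfb2m and Polrmt, of mitochondrial transcription, had lower ones (log2 fold changes -0.36 and -0.41, edgeR adjusted p = 0.182 and 0.191). The list's median was -0.16, with 6 of 11 below 0. Gabpb1 was at 6.95, 5.12 and 7.44 CPM untreated and at 10.7, 10.2 and 10.4 CPM after DSS (log2 fold change 0.68, edgeR adjusted p = 0.0558).

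Mitochondrial ribosome genes, which translate the mitochondrial subunits, gave the only edgeR calls among these pathway lists. In wild-type liver 58 of 65 were below 0 after DSS (47.8% of all genes), with a median of -0.21. None was called by edgeR, with 8 at an unadjusted p under 0.05, all lower, against 6.19% of all genes. DESeq2 called 2, and 5.95% of all genes. Against the same untreated wild-type livers, untreated livers with the RelaΔhepStat3Δhep label gave a like picture. There 58 of 65 were below 0 (49.8% of all genes), with a median of -0.18 and no call by either tool. The number at an unadjusted p under 0.05 was 14, all lower, against 6.23% of all genes. In the livers labelled RelaΔhepStat3Δhep, 42 of 65 were above 0 with a median of 0.08, and Mrpl27, Mrpl46 and Mrpl50 rose by edgeR (log2 fold changes 0.60, 0.53 and 0.67, adjusted p = 0.0248, 0.0304 and 0.0302). That is 4.62% of the list, against 4.57% of all genes called higher in this comparison, so the share was that of the background. Mrpl50 was at 38.8, 34.6 and 34.8 CPM untreated and at 72.9, 47.2 and 52.1 CPM after DSS. All 3 encode proteins of the large mitochondrial ribosomal subunit. In the interaction 54 of 65 were above 0 (48.7% of all genes), with a median of 0.33, and edgeR called none. An unadjusted p under 0.05 was found for 18, all with a higher response with the label, against 8.83% of all genes. DESeq2 called 5 higher (Mrpl45, Mrpl46, Mrpl47, Mrpl50 and Mrps16), where it called 4.5% of all genes in either direction. These comparisons share the untreated wild-type livers.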

How the data were processed

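Liver RNA was sequenced in 12 mice. Per the labels, the authors' processing used fastp, HISAT2, StringTie and DESeq2 with mm9. The deposited values are estimated counts per Ensembl gene, used as whole numbers. Of 51609 row identifiers, 28677 had a GENCODE vM1 symbol, and 1672 belong to a later numbering than that annotation, so exon lengths and NCBIM37 positions from vM1 may differ from those used in counting. Whether counting used strand was not given.

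Genes passing filterByExpr (17652) were fitted in edgeR 4.0.16 (TMM, robust quasi-likelihood, R 4.3.3) with all 4 groups in 1 model, which pools the spread (biological coefficient of variation 0.317). Contrasts were called at a Benjamini-Hochberg adjusted p under 0.05. DESeq2 1.42.0 was the alternative, because the study names it without a design. Two-sided exact tests on 3 against 3 livers cannot go below p = 0.1, so none are given. The scripts were tested on simulated data with 200 genes changed in DSS-treated wild-type livers. There edgeR called 46% of the 2-fold and 93% of the 4-fold changes, and 3.47% of its calls were false. Smaller changes were not simulated, so a missing call does not show that a transcript was unchanged. No 2 libraries of a group agreed within sampling noise.

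Named genes were members with called changes, the highest and lowest of each complex in 3 comparisons, complex II, tissue isoforms with their partners and the most abundant member of each complex. Others named were chosen after their values were seen. Members and lists were chosen with earlier results of these data known. Alternatives were other scalings, filters, models, covariates and leaving out each library.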

Additional observations from a re-analysis of the deposited data

How the results depend on the processing

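The count of called members moved from 0 in few settings. In wild-type liver after DSS it was 1 with DESeq2, with DESeq2 size factors in edgeR, with no filter and with at least 10 counts in every library, and 0 to 1 when each library was left out in turn, always Ndufaf4 (1 without DSS-treated liver 1). In the livers labelled RelaΔhepStat3Δhep it was 3 with DESeq2, 1 with at least 10 counts in every library, 1 with only the groups compared, and 0 to 1 on leaving out libraries (1 without treated liver 3, Ndufaf4). For the genotypes after DSS it was 0 to 1 on leaving out libraries (Ndufa4l2). No call changed direction. DESeq2 called 5.95% of all genes in wild-type liver and 14.4% with the label. The main edgeR fit called 0.685% and 7.02%, and 0.334% for the genotypes after DSS. Shares of all genes called under the other settings are not given here, so those counts of called members are not set against a background. With the replicate number as a block, 0 members were called in every comparison, and same-numbered livers deviated together by correlations of only -0.07 to 0.20, so the numbers were not read as pairs. Members at an unadjusted p under 0.05 ran, as libraries were left out in turn, from 3 to 23 after DSS in wild-type liver, from 2 to 15 in the livers labelled RelaΔhepStat3Δhep, from 1 to 24 for the genotypes after DSS and from 1 to 16 for the interaction. The highest of these were 29.5%, 19.2%, 30.8% and 20.5% of members, against 14.4%, 19.3%, 14.4% and 17.3% of all genes under the same setting. With Xist as a covariate the counts were 10, 1, 2 and 2 (12.5%, 11.1%, 6.55% and 7.63% of all genes), and with total counts 17, 4, 13 and 9 (12.8%, 20.3%, 13.8% and 14.9%). The Xist term was estimated from untreated wild-type liver 3 alone, so those counts do not separate Xist level from treatment or genotype. In the livers labelled RelaΔhepStat3Δhep the replicate block gave 6 (23% of all genes). For the genotypes after DSS no filter gave 8 (10%) and only the groups compared gave 1 (11.2%). Total counts without TMM moved the median of all genes to -0.09 after DSS in wild-type liver and to 0.14 between genotypes after DSS, with members at -0.35 and 0.27. In an alternative chosen after seeing the data, the members lower without overlap after DSS were 24 with total counts, 31 with DESeq2 size factors and 33 to 48 without single libraries in wild-type liver, where 11.6%, 9.48% and 12 to 15.4% of all genes qualified (30.8%, 39.7% and 42.3 to 61.5% of members). In the livers labelled RelaΔhepStat3Δhep they were 16, 14 and 11 to 34 (20.5%, 17.9% and 14.1 to 43.6% of members), against 12.1%, 15.4% and 17.9 to 20.3% of all genes, and below the share of all genes on leaving out untreated liver 1 or 2 or treated liver 1 or 2. Leaving out a library makes non-overlap easier. Members under 1 CPM rest on few counts.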
